A study of Mus musculus with 4 samples.

Results

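Dendritic cells grown from mouse bone marrow were exposed to LPS, a component of the outer membrane of gram-negative bacteria, and their RNA was set against that of the same kind of culture left in medium. The comparison takes in every gene with a signal and rests on 2 of the 4 arrays of the series, 1 for each side. All 4 cultures came from femur marrow of male C57BL/6J mice and are titled WT, for wild type. They grew with 10 ng/ml GM-CSF in MEM that held 10% FBS and were used on day 6. The LPS culture had received 100 ng/ml LPS for 4 h. The medium culture is labelled as not stimulated, with no time. The remaining arrays held cells given 20 mM LA (written L-(+)-LA in the labels) for 4 h, without LPS or with 100 ng/ml of it. The labels give no age of the mice and do not say whether marrow was pooled. With 1 array per group there were no replicates, so no test, p-value or spread between cultures could be given, and every difference below is one between 2 arrays.

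A level is the log2 of a signal minus that of the 75th percentile over all non-control spots of its array, a difference is the LPS level minus the medium level in log2 units, and 1 unit is a 2-fold difference. Genes are called measured where the probe stood well above background in medium and with LPS alike. Most of those that did so on a single array have a bound, written as at least N-fold. For it the dim array is taken at its own level or at the lowest level called above background there, whichever is higher. Where its own level is the higher, the bound is the plain difference and not a firm lower limit. Where levels are given as a pair, the medium array comes first. Of 23451 genes with a value, 15638 were well above background on 1 or both arrays and 13592 on both.

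LPS bound to CD14 and MD-2 is recognised by Toll-like receptor 4 (TLR4). At the cell surface the receptor signals through MyD88, IRAK kinases and TRAF6 to NF-kB and AP-1, the factors behind most cytokine and chemokine genes. From endosomes it signals through TRIF, TBK1 and IRF3 to interferon beta, which acts back on the cells through STAT factors and IRF9 to switch on interferon-stimulated genes. Dendritic cells that have sensed LPS are known to stop taking up antigen, to display costimulatory molecules and to move towards lymph nodes.

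The start sites of some of the higher genes show the letters these factors are known to bind. Printed for 10 genes are the 250 bases before the annotated start, 5′ to 3′ on the strand of the gene, from RefSeq on GRCm38.p6. The genes were chosen after their values had been seen, to show an interferon, chemokines, a cytokine, NF-kB inhibitors and interferon-stimulated genes. Capitals mark GGGNNNTTCC, a letter string of NF-kB sites (called kB here), and GAAANNGAAA, a string of the interferon-stimulated response element (ISRE), on either strand and including overlapping matches. The window of Ifnb1 (chr4:88522795-88523044, minus strand) holds 1 kB string that ends 107 bases before the start. That of Cxcl10 (chr5:92348890-92349139, minus strand) holds an ISRE string and 2 kB strings, and those of Cxcl1 (chr5:90890995-90891244, plus strand) and Il6 (chr5:30012864-30013113, plus strand) hold kB strings alone.
Ifnb1: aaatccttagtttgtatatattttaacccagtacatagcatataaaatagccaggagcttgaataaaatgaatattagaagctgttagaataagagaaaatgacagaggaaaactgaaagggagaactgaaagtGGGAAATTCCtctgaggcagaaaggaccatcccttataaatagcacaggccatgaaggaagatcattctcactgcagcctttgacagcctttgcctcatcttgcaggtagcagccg
Cxcl10: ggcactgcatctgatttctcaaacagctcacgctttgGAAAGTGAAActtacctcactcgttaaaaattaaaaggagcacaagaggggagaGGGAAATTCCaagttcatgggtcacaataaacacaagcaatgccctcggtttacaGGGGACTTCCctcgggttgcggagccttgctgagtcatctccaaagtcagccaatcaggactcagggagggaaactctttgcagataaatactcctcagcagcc
Cxcl1: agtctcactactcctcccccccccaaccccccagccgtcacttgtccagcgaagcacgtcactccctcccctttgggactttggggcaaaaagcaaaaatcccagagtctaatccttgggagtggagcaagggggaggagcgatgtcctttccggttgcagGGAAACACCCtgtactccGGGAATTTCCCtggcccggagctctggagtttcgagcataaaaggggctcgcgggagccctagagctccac
Il6: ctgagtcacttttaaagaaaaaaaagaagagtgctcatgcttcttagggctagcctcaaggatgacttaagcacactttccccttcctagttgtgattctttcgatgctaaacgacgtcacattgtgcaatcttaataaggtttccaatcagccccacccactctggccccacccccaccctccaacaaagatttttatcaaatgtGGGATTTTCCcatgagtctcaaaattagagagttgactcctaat

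Among the inhibitors of NF-kB, Nfkbia (chr12:55492648-55492897, minus strand) has a kB string ending 20 bases before the start, and Tnip1 (chr11:54962941-54963190, minus strand) has a pair of overlapping kB strings. Among interferon-stimulated genes, Ifit1 (chr19:34640639-34640888, plus strand) has a pair of ISRE strings on the opposite strand. Isg15 (chr4:156200819-156201068, minus strand) and Socs1 (chr16:10785537-10785786, minus strand) have runs of overlapping ISRE strings. Gbp5 (chr3:142496684-142496933, plus strand) has both kinds. A match describes letters and is not evidence that a factor was bound.
Nfkbia: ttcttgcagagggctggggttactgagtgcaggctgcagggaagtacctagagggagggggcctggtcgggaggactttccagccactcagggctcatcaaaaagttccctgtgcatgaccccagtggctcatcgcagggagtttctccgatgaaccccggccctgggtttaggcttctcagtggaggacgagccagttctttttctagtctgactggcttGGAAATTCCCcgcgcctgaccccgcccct
Tnip1: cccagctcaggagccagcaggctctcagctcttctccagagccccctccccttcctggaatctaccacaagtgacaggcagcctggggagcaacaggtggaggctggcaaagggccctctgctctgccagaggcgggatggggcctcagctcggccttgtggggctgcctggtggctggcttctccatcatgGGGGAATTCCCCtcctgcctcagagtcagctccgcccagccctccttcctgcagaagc
Ifit1: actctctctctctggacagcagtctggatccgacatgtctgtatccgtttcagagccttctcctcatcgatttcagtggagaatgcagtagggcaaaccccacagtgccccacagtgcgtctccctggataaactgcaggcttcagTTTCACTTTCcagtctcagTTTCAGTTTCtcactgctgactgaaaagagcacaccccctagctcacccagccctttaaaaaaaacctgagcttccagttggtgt
Isg15: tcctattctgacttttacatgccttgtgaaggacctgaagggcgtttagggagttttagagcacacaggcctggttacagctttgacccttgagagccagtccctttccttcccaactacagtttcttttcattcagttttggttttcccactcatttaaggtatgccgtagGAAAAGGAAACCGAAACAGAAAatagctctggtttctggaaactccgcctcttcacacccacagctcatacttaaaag
Socs1: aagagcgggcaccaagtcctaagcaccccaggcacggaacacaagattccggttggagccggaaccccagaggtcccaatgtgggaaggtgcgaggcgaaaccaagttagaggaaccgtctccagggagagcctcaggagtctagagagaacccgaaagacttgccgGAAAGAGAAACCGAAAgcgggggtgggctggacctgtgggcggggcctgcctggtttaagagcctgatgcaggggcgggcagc
Gbp5: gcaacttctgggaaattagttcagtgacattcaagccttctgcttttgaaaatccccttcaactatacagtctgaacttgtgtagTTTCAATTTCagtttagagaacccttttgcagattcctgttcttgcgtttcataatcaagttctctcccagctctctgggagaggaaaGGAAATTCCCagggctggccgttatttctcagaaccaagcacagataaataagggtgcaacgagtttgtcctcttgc

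Of the 13592 measured genes, 1107 (8.14%) were at least 2-fold higher with LPS, 1019 (7.5%) were at least 2-fold lower, and 84.4% were neither. Counts of higher and lower genes were thus close, with higher genes making up 52.1% of those 2-fold apart, but the sizes were not. At least 4-fold differences were seen for 314 higher and 76 lower genes, at least 8-fold for 105 and 9, at least 16-fold for 44 and 1, and at least 32-fold for 20 and 0. The even split depended on how the arrays were scaled to each other. It was 35.7% higher genes when the 75th percentile was limited to probes bright on each array and 30.2% in the values the authors deposited, against 60.4% after normexp background correction. Scaling moved the median of all genes from 0.00 by between -0.24 and 0.06. Including genes with a bound, 1437 of 15638 (9.19%) were at least 2-fold higher and 1339 (8.56%) at least 2-fold lower, the shares against which counts over gene lists are read below.

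**Figure D1:**
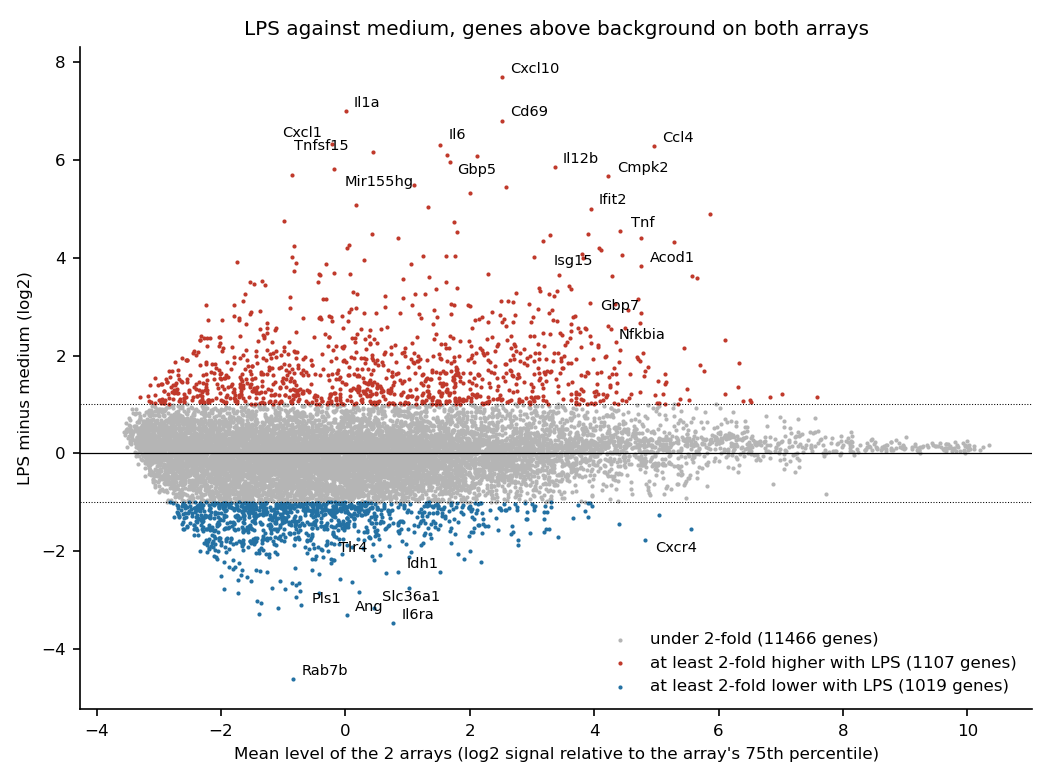
The difference between LPS and medium (log2, vertical axis) is plotted against the mean level of both arrays (log2, scaled to the 75th percentile, horizontal axis) for 13592 measured genes, with 1107 higher genes in red, 1019 lower genes in blue and named examples. Higher genes reach 7.70 (Cxcl10), while 1 lower gene, Rab7b at -4.62, lies beyond a 16-fold difference.

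The error of a spot was small beside these differences. For 281 probes printed 10 times and measured on both arrays, the difference of a single pair of spots had an SD of 0.072, and 0.54 for the 19 such probes that were dim on 1 or both arrays. That error leaves out labelling, culture and animal. Fewer spots were well above background with LPS (56.5%) than in medium (61.5%), and the lowest level called above background was higher with LPS (-3.49 against -3.99). In all, 1546 genes were above background in medium only and 500 with LPS only. The share of higher genes was 6.09% in the dimmest of 4 equal classes of genes and 11.6% in the brightest, while the share of lower genes was 8.39% and 2.8%. Protein-coding genes had 8.2% higher and 7.75% lower, and long noncoding RNAs 7.25% and 4.35%.

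The labelled cell type was read through its markers. Of 20 dendritic cell markers, 18 were above background in medium and 17 with LPS, and the log2 of their summed signal was 8.32 and 8.51. Itgax, the CD11c integrin chain, lay at 1.33 and 0.86, Zbtb46, a factor of conventional dendritic cells, at -1.02 and -0.34, and Flt3, the receptor of the dendritic lineage, at -2.77 and -2.71, while Xcr1 and Cd8a, markers of cross-presenting subsets, were not well above background on either array. Cultures in GM-CSF can also hold other cells, and their markers were present as well. The log2 summed signal was 8.80 in medium and 8.81 with LPS for macrophage and monocyte markers, 9.83 and 10.05 for neutrophil and myeloid precursor markers, 6.27 and 6.96 for mast cell, basophil and eosinophil markers, 3.58 and 3.71 for lymphocyte and NK markers, 4.70 and 4.98 for erythroid and megakaryocyte markers and 6.23 and 6.80 for stromal markers. In the mast cell and granulocyte list, Hdc, the histamine-forming enzyme, accounted for the largest member difference (2.90), Epx, eosinophil peroxidase, was 1.13 higher and 18 of 20 detected members were neither. Kdr, a VEGF receptor, and Vcam1, an adhesion molecule, stood 2.39 and 2.33 higher in the stromal list, and Col1a1, a collagen chain of fibroblasts, was at least 2.41-fold higher, where Lum, Pdgfra, Cdh5 and Tek were not well above background. Ms4a1 and Ncr1, markers of B cells and NK cells, were likewise not above background, while Cd3e, a T cell marker, lay at -0.29 and -0.04. Other members of that list were detected, with Gzmb, a granule protease, at -3.67 and -1.80, Cd79a, a chain of the B cell receptor, at -1.21 and -1.88, and its partner Cd79b at least 4.73-fold lower. The part of these cells in the differences below was not tested, and in bulk RNA fewer cells of a type and less RNA per cell cannot be told apart.

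The members of the LPS receptor complex differed in direction. Tlr4 lay at 1.48 in medium and -0.63 with LPS, a difference of -2.11 (-2.18 at its other probe), and Cd14, the co-receptor that hands LPS over, went the opposite way from 2.39 to 4.27. Ly96, which encodes MD-2, lay at 8.62 and 8.78, and Cd180 and Ly86, the receptor pair related to TLR4 and MD-2, at 2.42 and 2.60 and at 1.56 and 1.34. The median of the 6 members was 0.02 and took either sign between scalings (-0.22 to 0.08). Of 11 other detected Toll-like receptor genes 3 were higher, namely Tlr3, the sensor of double-stranded RNA (-3.19 to -0.39), Tlr1, a partner of TLR2 (-2.51 to -0.11), and Tlr2 (1.36 higher, at 2.86 with LPS), while Tlr13, a sensor of bacterial ribosomal RNA, was lower (1.99 to 0.57).

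Among 23 adaptors and kinases downstream of the receptors, 6 were higher and 2 lower, with a median of 0.13 that also changed sign between scalings (-0.10 to 0.20). Myd88, the adaptor shared by most Toll-like receptors, lay at -0.70 and 0.72, Ikbke, an IRF3 kinase, at 1.11 and 3.45, and Pik3ap1, a link to PI3 kinase, was 1.84 higher than its 1.95 in medium. Map3k8, the kinase that leads to ERK, was at least 5.75-fold higher. Irak3, an inhibitory member of the IRAK family, was 1.30 higher. Lower were Irak4 (-0.22 to -1.25), the kinase at the head of the MyD88 complex, and Tab1 (-1.08 to -2.56), a partner of TAK1, whereas Ticam1, which encodes TRIF, and Tirap lay within 0.13. C-type lectin receptors, which recognise fungal and other sugars, were mostly neither (13 of 17). Clec4e, known as Mincle, was 2.78 higher, and Clec7a, known as Dectin-1, was 1.48 lower (3.04 to 1.56). The median of that list, 0.06, went from -0.18 to 0.13 between scalings.

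NF-kB subunits and IkB proteins were higher as a group, with 9 of 11 at least 2-fold higher, 0 lower and a median of 1.91. Nfkbiz, the inducible IkB that helps open secondary response genes, went from 1.02 to 5.35, a 20.2-fold difference. Nfkbia, the main inhibitor that NF-kB itself induces, went from 2.92 to 5.52, and Bcl3, an IkB that works in the nucleus, from 0.42 to 2.66. Nfkb1, the precursor of p50, lay at -0.44 and 1.47 and Rel at 3.75 and 5.67. Rela (0.69) and Relb (0.71) were the members under 2-fold. Genes that add, remove or bind ubiquitin chains in this pathway, many of them inhibitors, had 10 of 18 higher, 1 lower and a median of 1.04. Tnfaip3, which encodes A20, went from 1.61 to 5.26, Peli1, an E3 ligase of IRAK signalling, from 1.41 to 4.80, and Tnip1, a partner of A20, from 1.23 to 3.23. Rnf31, the catalytic chain of the linear ubiquitin complex, which promotes NF-kB signalling, was 1.99 higher, while Rbck1 and Sharpin, the other chains of that complex, lay at 0.00 and 0.07. Itch, another E3 ligase, was the lower member (-1.38).

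Immediate early and AP-1 genes were mixed, with 9 of 31 higher, 2 lower and a median of 0.39. Batf and Batf2, AP-1 factors of dendritic cells, stood 3.56 and 3.12 higher and Nr4a1, an orphan nuclear receptor, 2.35. Fos (-0.72), Jun (-0.08) and Egr1 (-0.21), classic early genes, were under 2-fold, and Egr2 went from 4.00 to 2.39. The mRNA decay factors Zc3h12c and Zc3h12a, the latter Regnase-1, stood 2.97 and 2.59 higher and Zfp36, which encodes tristetraprolin, 1.85, while the related Zfp36l2 was 1.32 lower. Of 11 dual-specificity phosphatases, which switch off MAP kinases, 6 were higher and 1 lower. Dusp2 went from -1.65 to 3.86, a 45.4-fold difference, Dusp14 from -2.49 to 0.71 and Dusp1, a phosphatase of p38 and JNK, from 0.78 to 2.63, whereas Dusp6, which acts on ERK, lay at 1.06 and 0.55. In the SOCS family, which restrains cytokine receptors, Socs3 (-1.19 to 3.85), Socs1 (-3.37 to 1.38) and Cish (0.09 to 2.73) were higher, Socs5 was lower (-0.37 to -1.47) and the other 4 were neither.

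**Figure D2:**
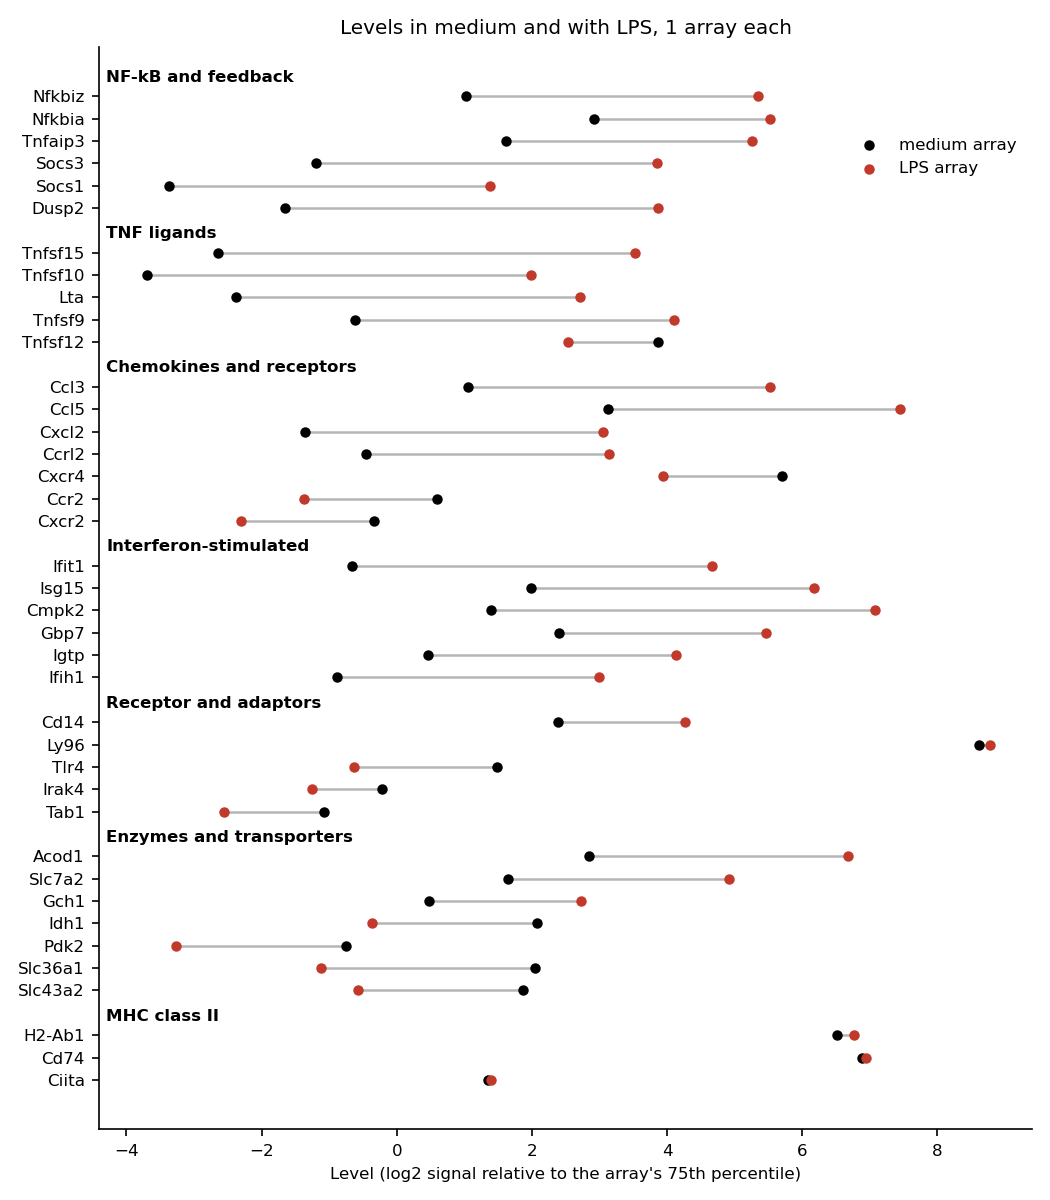
Levels on the medium array (black) and the LPS array (red) are joined for single genes in 7 groups, on a log2 scale set to each array's 75th percentile, with 1 array per point. Feedback, TNF ligand, chemokine and interferon-stimulated genes mostly lie to the right with LPS, Tnfsf12, Cxcr4, Ccr2, Cxcr2, Tlr4, Irak4, Tab1, Idh1, Pdk2, Slc36a1 and Slc43a2 to the left, and the MHC class II genes shown differ by 0.24 or less.

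The cytokine genes with the largest differences belonged to several families. Among 13 detected IL-1 family genes and receptors, 7 were higher. Il1a went from -3.50 to 3.51, Il1b from 2.02 to 6.19 and Il1rn, the receptor antagonist, from 3.31 to 6.18. Il1f9 and Il1f6, members active in skin inflammation, were 1.91 higher and at least 3.96-fold higher, and Il18bp, which neutralises IL-18, was 1.88 higher against 0.89 for Il18 itself. The type 1 receptor gene Il1r1 was above background in medium only and at least 2.41-fold lower. Of 14 genes of the IL-6 and IL-12 families, 8 were higher and 2 lower. Both chains of IL-27, Il27 (0.76 to 3.32) and Ebi3 (2.42 to 4.70), were higher, Il23a, the chain that makes IL-23 with Il12b, was at least 7.88-fold higher, and Lif, a gp130 cytokine, at least 7.16-fold. The lower genes were receptor chains, Il6ra at 2.50 and -0.97 and Il6st, the shared signalling chain gp130, at 2.85 and 1.24. Other receptor chains were not lower, with Il12rb1 at least 2.56-fold higher and Il12rb2 and Il27ra 0.34 and 0.21 higher.

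Beyond these families, Il15, a growth factor of NK and memory T cells, went from 0.26 to 3.12, and Inhba, the activin A subunit, from -0.14 to 5.31, a 44.0-fold difference. Il10 was at least 20.3-fold higher and Ifng, which encodes interferon gamma, at least 3.65-fold, at a level of -2.12 with LPS. Tgfbr1 and Tgfbr2, the receptors of TGF beta, were 1.38 and 1.05 lower. In the list of anti-inflammatory and other cytokines, 13 of 18 were neither, and its median of 0.03 took either sign (-0.20 to 0.10 between scalings). The receptors of the colony-stimulating factors had 0 members 2-fold apart at the brightest probe. Csf2ra, the GM-CSF receptor chain, lay at 2.55 and 2.71. Csf1r, the M-CSF receptor, lay at 5.06 and 4.85, with a difference of -1.13 at its other probe. Csf2, the gene of GM-CSF itself, was near background on both arrays (-3.81 and -3.78) and has no bound.

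TNF superfamily ligands had 9 of 13 members higher, 1 lower and a median of 2.34 over 12 measured members. Over the 8 members above background on all 4 arrays the median was 0.79 under the same scaling. The lowest median among the settings, 0.55, was thus mostly a matter of fewer members, since the authors' values lack genes dim on an LA array. Tnfsf15, which encodes TL1A, a costimulator of T cells, went from -2.64 to 3.53, a difference of 6.17 (5.37 at its other probe). Tnfsf10, which encodes the death ligand TRAIL, went from -3.70 to 1.98, Lta, lymphotoxin alpha, from -2.38 to 2.71, and Tnfsf9, the 4-1BB ligand, from -0.62 to 4.10. Cd70, the ligand of CD27, was above background with LPS only and at least 9.30-fold higher, and Tnfsf8, Tnfsf4 (OX40 ligand) and Ltb stood 3.03, 1.65 and 1.47 higher. Tnfsf12, which encodes TWEAK, was lower (3.87 to 2.53), and Tnfsf13b, which encodes BAFF, lay within 0.11. Receptors of the family were mostly neither, 14 of 19. Cd40, the receptor for T cell help, went from -2.25 to 1.41, Fas, the death receptor, from 0.80 to 2.44 and Tnfrsf1b, TNF receptor 2, from 3.34 to 4.75, while Tnfrsf21, death receptor 6, was 1.49 lower than its 2.98 in medium.

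Of 11 detected CXC chemokines, 7 were higher and 0 lower, with a median of 1.31. Besides Cxcl10 and Cxcl1, Cxcl2 (-1.36 to 3.05) and Cxcl3 (-1.75 to 1.91), further attractants of neutrophils, were higher, and Cxcl9, an attractant of activated T cells, was at least 6.98-fold higher. Cxcl16 was 1.01 higher and Pf4 and Cxcl12 were under 2-fold. Of 16 CC and other chemokines, 9 were higher and 0 lower, with a median of 1.36. Ccl3 (1.06 to 5.53), Ccl5 (3.13 to 7.44) and Ccl2 (-0.40 to 3.63), which draw monocytes and T cells, were higher, and Ccl7 and Ccl12, ligands of CCR2, were at least 17.4-fold and at least 5.03-fold higher. Ccl17 and Ccl22, ligands of CCR4 made by mature dendritic cells, stood 3.05 and 1.76 higher. Ccl6, by contrast, lay at 6.04 and 6.13.

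Receptors for chemoattractants split into higher and lower members, 4 and 6 of 18. Higher were Ccrl2, which presents chemerin (-0.46 to 3.14), the formyl peptide receptors Fpr1 (1.25 to 3.31) and Fpr2 (1.88 higher, at 5.68 with LPS), and Ccr7, the lymph node homing receptor. Lower were Cxcr4, the receptor for CXCL12 (5.70 to 3.94), Cx3cr1, the fractalkine receptor (1.24 to -0.69), Ccr2 (0.60 to -1.37), Cxcr2 (-0.33 to -2.31), Ccr1 (-1.04 to -2.13) and Ccr6, which guides cells to CCL20 and has a bound (at least 3.07-fold lower). Ccr2 and Cx3cr1 are also markers of monocytes, and Cxcr2 of neutrophils, while other markers of those cells, such as Cd68 (4.75 and 4.77), Ly6c2 (5.39 and 5.84), S100a8 (5.79 and 5.73) and Ngp (6.38 and 6.41), lay within 0.45 of each other.

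The 3 lists with the highest medians of measured members belonged to the interferon arm, followed by the TNF superfamily ligands, which came second (3.03) when bounds were counted. Ifnb1 stood at 3.87 with LPS and was not well above background in medium, at least 231-fold higher, while Ifna1 (-1.53 and -1.40), Ifna5 and Ifnl3 gave no 2-fold difference and Ifna2 and Ifna4 were not above background on either array. The receptor chains Ifnar1 and Ifnar2 were 0.41 and 0.72 higher, and Ifngr1, the ligand-binding chain for interferon gamma, was lower (2.18 to 0.53). Among interferon regulatory factors, Irf1 (2.81 to 5.87) and Irf7 (2.04 to 4.75) were higher, with Irf9 and Irf2 at differences of 1.06 and 1.0, whereas Irf3, the factor activated directly by TBK1, lay at 0.62 and 0.49. Stat2 (2.97 to 5.15), Jak2 (1.78 to 3.83) and Stat5a (3.06 to 4.65) were among the 4 higher genes of 11 STAT factors and Janus kinases.

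Guanylate-binding proteins, GTPases that attack the vacuoles of microbes, were higher in 8 of 8 detected members, with a median of 3.18. Gbp5 led with -1.42 to 4.69, Gbp7 went from 2.40 to 5.47, and the smallest difference was 2.15 for Gbp10. The related immunity-related GTPases had 7 of 8 higher and a median of 2.79, with Igtp at 0.46 and 4.13 and Iigp1 at least 12.6-fold higher, and Irgq (-0.51) under 2-fold. Of 13 IFIT and OAS genes, whose products bind foreign RNA or trigger its decay, 11 were higher with a median of 2.77. Oasl1 went from -1.30 to 4.67, Ifit1 from -0.66 to 4.67 and Ifit2 from 1.44 to 6.45. The Schlafen family had 6 of 7 higher with a median of 2.13, and Slfn4 was at least 14.7-fold higher. Other interferon-stimulated effectors had 32 of 36 higher, 0 lower and a median of 2.0. Cmpk2, a mitochondrial nucleotide kinase, went from 1.39 to 7.07, Rsad2, which encodes viperin, from 3.41 to 8.30, Isg15 from 1.98 to 6.18 and Usp18, which removes ISG15, from -2.02 to 1.66. Sp100 (0.72), Ifitm1 (0.31) and Sp110 (0.12) were among the 4 that were neither.

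**Figure D3:**
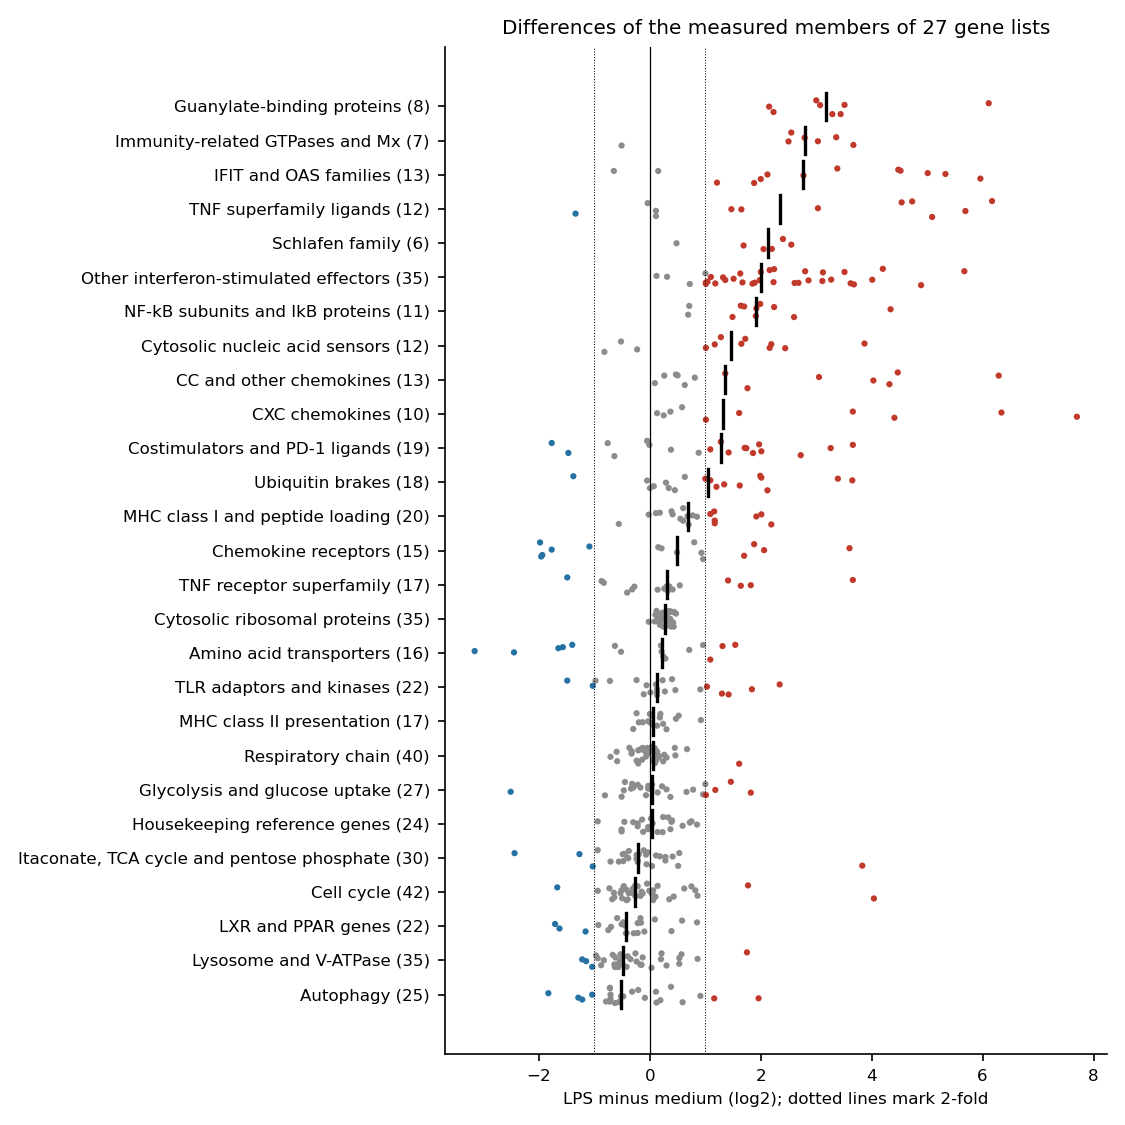
Each point is the LPS minus medium difference (log2) of 1 measured gene in 27 lists, ordered by their median (black bar), with higher genes in red, lower genes in blue and the number measured in brackets. Interferon-stimulated and NF-kB lists lie to the right of the dotted 2-fold line, ribosomal proteins, the respiratory chain and MHC class II sit near 0, and lysosome and autophagy medians lie at -0.49 and -0.52.

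Sensors of nucleic acid and cell wall in the cytosol were higher in 9 of 13 cases, with a median of 1.46. Ifih1, which encodes MDA5, was 3.87 higher than its -0.88 in medium, Ddx58, which encodes RIG-I, went from 2.10 to 4.29, Nod1 from -1.03 to 1.41 and Cgas, the sensor of DNA, from 0.69 to 1.97. Sting1 (-0.82) and Mavs (at least 1.87-fold lower), the adaptors behind them, were not higher. In the inflammasome and pyroptosis list 8 of 24 were higher and 2 lower. Casp4, known as caspase-11, the cytosolic LPS receptor, went from 1.17 to 3.85, Casp1 from 1.74 to 3.67 and Nlrp3 from 2.61 to 4.15, while Pycard, the adaptor ASC (2.13 and 1.92), Gsdmd, the pore protein (3.55 and 3.79), and Nek7 lay under 2-fold. P2rx7, the ATP-gated channel upstream of NLRP3, was 1.42 lower, although another of its 3 probes gave 0.35, and Txnip was 1.34 lower. Of 16 genes of extrinsic death and necroptosis 7 were higher, among them Cflar, the inhibitor c-FLIP (1.85 to 4.79), Ripk2 (-2.55 to -0.26) and Mlkl, the executioner of necroptosis (-2.31 to -0.35), against Ripk3 at 0.01 and Fadd at -1.06. Bcl2a1d and Bcl2l1, inhibitors of mitochondrial apoptosis, were 2.32 and 2.06 higher, and Bcl2l11, the promoter of apoptosis known as Bim, was 1.05 higher (0.83 to 1.48 over 4 probes), in a BCL2 list whose median of 0.02 took either sign (-0.22 to 0.08).

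Costimulators and PD-1 ligands were higher in 12 of 20 cases and lower in 2, with a median of 1.28. Icosl, the ICOS ligand, went from 0.73 to 3.44, Nectin2 and Pvr, ligands of DNAM-1 and TIGIT, from -1.44 to 1.82 and from 0.53 to 2.25, Cd274, which encodes PD-L1, from 3.19 to 5.16 and Cd83, the maturation marker, from 1.40 to 3.26. Cd200, an inhibitory ligand, was at least 9.15-fold higher, and its receptor gene Cd200r1 was 1.77 lower than its 0.27 in medium. Cd80 was 0.88 higher, Pdcd1lg2, which encodes PD-L2, lay at -0.05 and Vsir, the checkpoint molecule VISTA, was 1.47 lower. Of 23 surface activation and adhesion genes 10 were higher and 0 lower, with Icam1 at -0.50 and 2.75, Cd38 at 0.46 and 3.49, and the integrin chains Itgav and Itga5 at 1.89 and 1.81 higher. Cd69 went from -0.89 to 5.93.

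Antigen presentation by MHC class I and class II differed in these counts. For class I and peptide loading 7 of 20 were higher, 0 lower and the median was 0.69. Nlrc5, the transactivator of class I genes, went from 0.93 to 3.12, Tap1, the peptide transporter, from 0.47 to 1.64 and B2m from 5.80 to 6.65, while H2-K1 and H2-D1, the classical heavy chains, were 0.70 and 0.39 higher. The immunoproteasome chains Psmb9, Psmb8 and Psmb10 stood 1.11, 0.88 and 0.83 higher in a proteasome list with 4 of 30 higher. For class II 17 of 17 were neither. Ciita, the transactivator of class II genes, lay at 1.35 and 1.39, H2-Ab1 at 6.52 and 6.76, Cd74 at 6.88 and 6.94 and Marchf1, the ligase that turns class II over, at 8.20 and 8.17. The class II median of 0.05 took either sign between scalings (-0.19 to 0.11). The difference between the class I and class II counts was not tested.

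Shape and motility genes were higher in 9 of 32 cases and lower in 1, with a median of 0.70. Rnd1 (-2.23 to 1.41) and Rnd3 (0.07 to 2.86), GTPases that oppose RhoA, Marcksl1 (1.94 to 5.31) and Fscn1, the bundler of dendrites (1.09 to 2.16), were higher. Pls1, a bundler of actin filaments, was lower (0.84 to -2.26), and with LA alone it was not above background. Actb lay at 6.61 and 7.36 and Rhoa at 4.26 and 4.54.

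Secreted defence proteins followed, with 8 of 20 higher and 0 lower. Saa3, serum amyloid A of macrophages, went from 2.56 to 6.96, Ptx3, a soluble pattern receptor, from 2.41 to 6.48 and Cfb, complement factor B, from 1.88 to 5.31, and Hamp, the iron hormone hepcidin, was at least 37.4-fold higher. In iron handling Slc40a1, the iron exporter that hepcidin removes, was lower (0.90 to -1.36). Among proteases and inhibitors 11 of 26 were higher. Serpinb2 (-2.08 to 2.13), an inhibitor of plasminogen activators, and Plat, one of those activators (at least 11.8-fold), were higher together with Mmp13 (-1.14 to 1.73), while Mmp9 went from -0.27 to -1.99.

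Among 21 genes of prostaglandins and leukotrienes, 2 were higher and 4 lower, with a median of -0.36. Ptgs2, the inducible cyclooxygenase, went from -0.93 to 5.15, a 68.0-fold difference, while Ptgs1, the constitutive one, was 0.82 lower. Ptges, the synthase after Ptgs2, was 0.36 higher at its brightest probe and 4.17 and 3.92 higher at the others, and Alox5 (-0.62) and Alox5ap (-0.15) of the leukotriene route were under 2-fold. The prostaglandin receptors Ptger3 (0.14 to -1.62) and Ptger2 (-0.35 to -1.65) were lower. In nitric oxide and arginine metabolism 4 of 15 were higher, among them Slc7a2, the arginine carrier (1.65 to 4.91), and Gch1, the first enzyme of the cofactor that nitric oxide synthase needs (0.48 to 2.73). Arg1 was above background in medium only. Ch25h, which makes the antiviral sterol 25-hydroxycholesterol, was 22.9-fold higher by the plain difference, from a medium level (-3.92) that was not well above background.

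Acod1, which makes itaconate from a TCA cycle intermediate, went from 2.84 to 6.68, a 14.2-fold difference. It was the 1 higher gene of 30 in the list of itaconate, TCA cycle and pentose phosphate genes, whose median was -0.22. Idh1, cytosolic isocitrate dehydrogenase, was lower at both its probes (2.07 to -0.37, a difference of -2.44, and -2.01), and Aco1 was 1.27 lower, while the mitochondrial Idh2 and Sdha differed by -0.24 and -0.22. Glycolytic genes were mostly neither (22 of 27), and their median of 0.03 changed sign between scalings (-0.20 to 0.10). Within the list Pfkfb3, which makes the activator of phosphofructokinase, went from 4.43 to 5.89, Slc2a6, a hexose carrier, from 1.68 to 3.50 and Hk1 from 3.43 to 4.61, whereas Ldha, Pgk1 and Gapdh differed by 0.30, 0.14 and -0.03. Pdk2, a kinase that restrains pyruvate dehydrogenase, went from -0.75 to -3.26. Of 40 respiratory chain genes 39 were neither, with a median of 0.05 (-0.21 to 0.12 between scalings), and Cycs, cytochrome c, was the exception at 1.61. Sod2, the mitochondrial superoxide dismutase, was 2.68 higher in a list of antioxidant genes that had a median of -0.23 with 20 of 23 neither.

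Amino acid transporters showed members on both sides, 4 higher and 6 lower of 18. Slc7a11, the cystine carrier, and Slc7a8 stood 1.54 and 1.31 higher. Slc36a1, which exports amino acids from lysosomes, went from 2.04 to -1.12, Slc43a2, a carrier of branched amino acids, from 1.87 to -0.57 and Slc38a2, a glutamine carrier, from 2.59 to 0.94. Slc3a2 and Slc7a5, chains of one carrier, lay within 0.28. The median of 0.21 took either sign between scalings (-0.03 to 0.27). In the integrated stress response list, whose median also took either sign (-0.20 to 0.12), Nupr1, a stress-induced cofactor, went from 1.77 to 5.85, while Atf4, the factor at its centre, lay at 5.65 and 5.02 and Trib3 was 1.65 lower.

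Lysosome and V-ATPase genes were under 2-fold in 31 of 35 cases, but 26 lay below 0, with a median of -0.49 (-0.73 to -0.43 between scalings). The median of all measured genes was 0.00, and their share below 0 was not counted. Tfeb, the factor that controls lysosome genes, was lower at its brightest probe (1.84 to 0.62) and 1.24 lower at another, but 0.30 higher at the third. Lipa, the acid lipase, and Npc1, the cholesterol exporter of lysosomes, were 1.15 and 1.04 lower, Lamp1 lay at 7.36 and 7.24, and Ctsc, a cathepsin that activates granule proteases, was higher (2.63 to 4.38). Autophagy genes gave a median of -0.52, with 20 of 26 neither. Atg14 (-1.35 to -3.18), Rubcn (1.95 to 0.66) and Ulk1 (1.26 to 0.22), which act at the start of autophagosome formation or restrain it, were lower, and the receptors Sqstm1, known as p62 (1.16 higher, at 8.16 with LPS), and Optn (-2.18 to -0.22) were higher. LXR and PPAR genes of lipid handling had 0 of 22 higher, 3 lower and a median of -0.43. Rxra, the shared partner receptor (1.24 to -0.47), and Acadm, an enzyme of fatty acid oxidation, were lower. Among Rab GTPases, which direct vesicles, 9 of 36 were higher and 2 lower, with Rab20 1.74, Rab32 1.30 and Rab5a 1.06 higher and Rab31 1.47 lower beside Rab7b (1.47 to -3.15).

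Sterol synthesis genes were mostly neither, 20 of 25, with a median of 0.13 that took either sign (-0.10 to 0.20). Idi1, an isoprenoid enzyme, was 1.69 higher, and Scd2 (2.99 to 0.82), a fatty acid desaturase, and Fads1 were 2.17 and 1.86 lower. Of receptors for lipids and metabolites, Gpr34 and Gpr84, the latter a sensor of medium-chain fatty acids, were 2.39 and 1.96 higher, and Lpar6 (1.64 to -1.19), Gpr35 (0.82 to -1.66) and Lpar5 were lower. Adora2b, the low-affinity adenosine receptor, was 2.19 higher and Nt5e, the enzyme CD73 that makes adenosine, 2.02 lower.

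Genes that limit or follow repeated exposure to LPS were higher in 10 of 20 cases and lower in 2, with a median of 0.79. Slpi, an inhibitor of LPS responses and proteases, went from 2.96 to 5.16 and Nt5c3, a nucleotidase, from 0.94 to 4.05. Aoah, the enzyme that deacylates LPS, went from 2.79 to 4.05 at its brightest probe but differed by -0.13 at the other. Inpp5d, the lipid phosphatase SHIP1, was lower (-0.57 to -2.35), as was Scarb1, a scavenger receptor that takes up LPS (1.86 to 0.77). Trem1 and Trem2, receptors that raise and restrain inflammatory signals, lay at 6.90 and 7.25 and at 4.52 and 3.85. Among Fc receptors, which bind antibodies, 2 of 7 were higher, Fcgr1 (1.46 to 3.86) and Trim21, a receptor in the cytosol (-3.29 to 0.22), while Fcgr2b, Fcgr3 and Fcgr4 were under 2-fold.

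Stress and growth-arrest genes gave differences in single members. Gadd45b and Cdkn1a, which hold the cell cycle, went from 1.77 to 4.18 and from 1.35 to 3.25, though the other probe of Cdkn1a gave 0.20. Mdm2, the ligase of p53, was 1.57 higher, whereas Trp53inp1 and Sesn1, further p53 targets, stood 1.43 and 0.81 lower. The median of that list was -0.03, between -0.26 and 0.04 over the scalings. Hspa5, the chaperone BiP, went from 4.79 to 6.60 and Hspb1 from -3.40 to -1.34, but 23 of 26 genes of ER stress and heat shock were neither, Xbp1 (0.09) and Dnajb9 (0.08) among them, with a median of 0.23 that reached -0.04 under the scaling that lowered it most. Hif1a, the hypoxia factor that NF-kB can induce, was 1.18 higher and Adm, the peptide adrenomedullin, went from -1.80 to 0.98, while Vegfa (-0.13) and Bnip3 (-0.20), known targets of that factor, were under 2-fold and the hypoxia list median was -0.08. In cAMP signalling Rgs1, which turns off G proteins, went from 2.46 to 5.01, and Rgs2 (4.05 to 2.50), Pde3b, a phosphodiesterase (1.19 to -0.59), and Sik1, a kinase (-0.65 to -2.63), were lower.

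Metal transport held members on both sides. Slc39a14, a carrier of zinc and iron, went from -3.04 to -0.89, Slc11a2, the iron carrier DMT1, from -0.70 to 1.85 and Mt2, a metallothionein, from 5.96 to 7.05, while the zinc carriers Slc39a10, Slc30a5 and Slc39a6 stood 1.57, 1.26 and 1.16 lower. Lcn2, which keeps iron from bacteria, was 1.21 higher, Hfe, a partner of the transferrin receptor, 1.25 lower, and Fth1, Tfrc and Hmox1 were under 2-fold. NADPH oxidase genes, whose complex makes superoxide, were neither in 9 of 9 cases, with Cybb 0.93 higher.

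Proliferation, ribosomal and housekeeping genes were mostly under 2-fold. Of 42 cell cycle genes 39 were neither, with a median of -0.26. Ccnd2, a D-type cyclin, went from -0.26 to 3.78 and Ccne1 from -2.11 to -0.34, whereas Ccnd1 and Ccnd3 were under 2-fold, E2f2 was 1.67 lower, and Mki67, a marker of dividing cells, lay at 2.90 and 3.66. Cytosolic ribosomal proteins were neither in 35 of 35 cases, with a median of 0.27 (0.01 to 0.34 between scalings), and housekeeping genes in 24 of 24, with a median of 0.03 that took either sign (-0.20 to 0.10). Chromatin modifiers had 6 of 35 higher and 3 lower, with Jdp2, Setdb2 and Tet2 at 2.94, 2.87 and 1.57, and a median of 0.07 that took either sign (-0.19 to 0.13).

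Among long noncoding RNAs Mir155hg, the host transcript of miR-155, went from -3.09 to 2.73, a 56.6-fold difference. AW112010, an RNA of activated myeloid cells, was 2.88 higher, Morrbid, which restrains Bcl2l11, 2.30, and Ptgs2os2, a transcript next to Ptgs2, at least 5.54-fold. Neat1 and Norad were under 2-fold. The list had 5 of 19 higher, 2 lower and a median of -0.02 (-0.31 to 0.04 between scalings). U90926, listed as a long noncoding RNA, had the second largest bound of all genes with an ordinary symbol, at least 170-fold, after Ifnb1.

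Outside the lists, the 25 largest lower differences held few genes of one kind. Ang, a secreted ribonuclease, stood 3.32 lower, Ppcs of coenzyme A synthesis 3.16, Fbxl4, a regulator of mitophagy, 3.06, Klhl17 3.03, Klhl21 2.76 and Zfp395 2.86. Gins4, a part of the replicative helicase, went from 2.40 to -0.36, Tef, a clock-output factor, from 1.43 to -1.21 and Arrdc3, an arrestin-domain protein, was 2.58 lower, at -1.38 with LPS. The largest lower bounds included Prl6a1 (16.1-fold by the plain difference, at 0.71 in medium) and Slc35f2 (at least 10.6-fold, at -0.09 in medium). With LA alone Prl6a1 was not above background and Slc35f2 lay at -3.25, so both were also low without LPS. Most of the 10 largest lower bounds shared this. Fgf4, Dcaf12l1 and Epb42 were not above background with LA alone, and Tas2r134, Lox and Cox10 stood 3.69, 2.77 and 3.27 below medium. Tmem86a and Tcaf1 differed from medium by 0.77 and -0.98 with LA alone. LA alone also stood below medium for Fbxl4 (by 2.92), Arrdc3 (2.20), Gins4 (1.65) and Ang (1.58). Ppcs, Klhl17, Klhl21, Zfp395 and Tef lay within 0.86 of medium with LA alone. Higher bounds beside those named included Pcp4 (at least 60.3-fold), Calhm6 (at least 45.9-fold) and Tpbg (at least 24.9-fold).

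Genes with several probes mostly gave the same direction, though not always the same size. The median SD between the probes of a gene was 0.23 over 4395 genes. Of 366 higher genes with several measured probes 345 had every probe above 0, and of 320 lower ones 279 had every probe below 0. In the other direction, 3709 genes were called neither by their brightest probe, and another probe was at least 2-fold higher for 181 of them and at least 2-fold lower for 282. The 6 genes in which another probe was at least 8-fold higher, named after their values had been seen, were Plagl1, Slc9a8, Ptges, Il15ra, Ppm1k and Btbd16. Ptges, the inducible prostaglandin E synthase, lay at 6.36 and 6.72 by its brightest probe but went from -0.27 to 3.90 and from -2.23 to 1.69 by the others. Il15ra, which presents IL-15, lay at 8.86 and 8.98 by the brightest probe and went from 0.12 to 4.16 and from -0.02 to 3.03 by the others. Irak2, a kinase of the MyD88 complex, lay at 8.95 and 9.06 by one probe and went from 0.27 to 1.63 by the other. For these genes the call of no difference rests on the brightest probe.

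Some of the higher and lower genes lay side by side on the chromosomes. Counting 3 or more neighbouring protein-coding genes above background as a run, 41 runs with 151 genes were higher in every member by value or bound. Lower in every member were 20 runs with 62 genes. Over all genes above background on 1 or both arrays, 1437 (9.19%) were higher and 1339 (8.56%) lower. The number of runs that such shares would give without clustering was not computed. The longest higher run, on chromosome 1, held 8 genes of the AIM2 and interferon-inducible p200 family from Aim2 to Ifi205. On chromosome 14 a run of 7 held Phf11a, Phf11b, Phf11d and Setdb2. The Gbp genes formed runs of 4 on chromosome 3 and on chromosome 5, the Slfn genes one of 5 on chromosome 11, the Ifit genes one of 4 on chromosome 19, and Cxcl3, Cxcl1 and Cxcl2 one of 3 on chromosome 5. Runs that were not of 1 family alone included Id2, Rnf144a, Rsad2 and Cmpk2 on chromosome 12 and Cited2, Heca, Abracl and Reps1 on chromosome 10. Another held Dtx3l between Parp14 and Parp9, themselves of 1 family, on chromosome 16. Ltb, Tnf and Lta lay side by side on chromosome 17. The longest lower run held 5 genes on chromosome 3, from Prune1 to Setdb1. These runs were read after the values were known. Neighbours of the same family can share probe sequence, so their differences are not separate measurements in every case.

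The printed start sites were read against all others. In the window from 250 bases before to 50 after the start, on both strands and with overlapping matches counted, GAAANNGAAA was held by 9.13% of 876 higher genes with a promoter in the table (80 genes), 3.77% of genes that were neither, 1.94% of 826 lower genes and 3.99% of all 27025 promoters. Among the 249 genes at least 4-fold higher the share was 18.1%. GGGNNNTTCC was held by 9.59% of higher genes, 14.1% of those at least 4-fold higher, 6.77% of genes that were neither, 6.05% of lower genes and 6.31% of all promoters. For TTCNNNGAA, a STAT site string (GAS), the shares were 11.1% in higher genes, 8.31% in genes that were neither, 8.11% in lower genes and 9.55% in all promoters. TGANTCA, an AP-1 string, was held by 10.4%, 6.87%, 6.78% and 8.97% of the same sets, and TATAAA by 9.7%, 7.38%, 3.63% and 9.77%. CACGTG, an E-box that MITF and TFE factors can read, was held by 14.5% of lower genes, 10.5% of higher genes, 10.6% of genes that were neither and 8.09% of all promoters.

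The strings were not spread evenly over the lists. An ISRE string was found in 4 of 4 guanylate-binding protein promoters in the table, 8 of 11 IFIT and OAS promoters, 4 of 6 of the immunity-related GTPases and Mx and 8 of 13 TRIM promoters. It was also in 6 of 24 promoters of cytosolic ribosomal proteins and 2 of 4 of NADPH oxidase genes, lists with 0 genes 2-fold apart. Of the TRIM genes 7 of 15 were higher, among them Trim21 and Trim30a (2.50 to 4.44). A kB string was found in 5 of 8 promoters of NF-kB subunits and IkB proteins and in 4 of 9 CXC chemokine promoters. The E-box was in 10 of 26 lysosome and V-ATPase promoters.

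**Figure D4:**
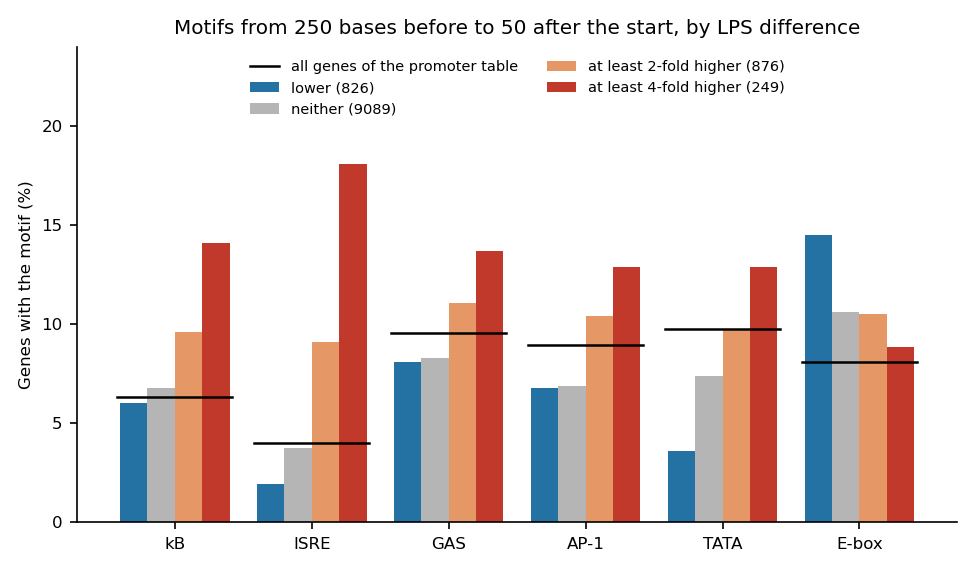
Bars give the share of genes (%) whose window from 250 bases before to 50 after the start holds a letter string, for lower, neither, at least 2-fold higher and at least 4-fold higher genes, and black lines give the share over all 27025 promoters of the table. For the ISRE string the bars run from 1.94% in lower genes to 18.1% in genes at least 4-fold higher, and for the E-box the tallest bar is that of lower genes, 14.5%.

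The remaining 2 arrays gave a second pair that differed in LPS, in cells that had received LA on both sides and shared no array with the comparison above. Of 13368 genes well above background on all 4 arrays, 87 (0.651%) were at least 2-fold higher with LPS and LA than with LA, and 133 (0.995%) were at least 2-fold lower. On these genes the comparison without LA gave 1045 higher and 1010 lower. The higher sets shared 17 genes, 1.63% of the 1045 and 19.5% of the 87, and the lower sets shared 16, 1.58% of the 1010 and 12% of the 133. Opposite calls fell to 13 genes higher without LA and lower with it, and to 7 genes lower without LA and higher with it. After normexp correction, opposite calls fell to 0 genes in either order. Beside the 19.5% and 12%, the shares without LA over all 13592 measured genes were 8.14% higher and 7.5% lower. The 1045 genes had a median difference of 1.55 without LA and 0.02 with it, and 53.3% of them lay above 0 with LA. The 1010 lower genes had medians of -1.30 and 0.02, and 47.6% of them lay below 0. The shares of all 13368 genes above and below 0 with LA were not computed, so 53.3% and 47.6% have no such share beside them. Whether the pairs differed was not tested, since each had 1 array per side.

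Among the 17 genes higher in both, Cxcl10 differed by 7.70 without LA and 2.07 with it (-3.65 to -1.59), and Rsad2 by 4.89 and 1.27 (0.46 to 1.73). Tlr3 differed by 2.80 and 2.37, Il12a by 4.26 and 1.58, Gbp4 by 3.44 and 1.31, Isg20, an exonuclease against RNA viruses, by 4.01 and 1.03 and Lag3, an inhibitory receptor, by 3.25 and 1.24. The 10 others were 9530036O11Rik, Ado, Asb13, Cep85l, Dcbld2, Fzd5, Lrrc4, Nfxl1, Ovol1 and Riok1, all 10 with levels below 0 on both arrays with LA. Lists with a high median without LA had medians near 0 with it, over the members above background on all 4 arrays. The medians were 3.18 and -0.10 for guanylate-binding proteins, 2.77 and -0.07 for IFIT and OAS genes, 1.91 and 0.12 for NF-kB subunits and IkB proteins, 1.36 and 0.07 for CC chemokines and 1.28 and 0.13 for costimulators. For lysosome and V-ATPase genes they were -0.49 and -0.03.

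**Figure D5:**
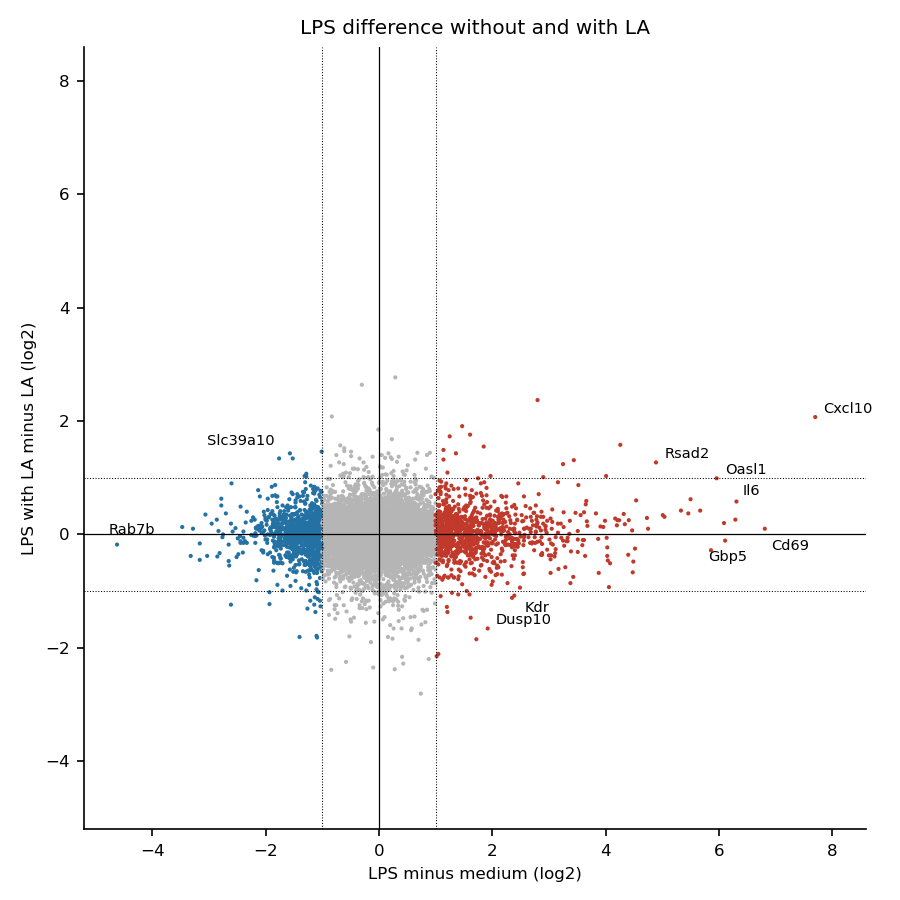
The LPS difference in cells with LA (LPS with LA minus LA, log2, vertical axis) is plotted against the LPS difference without LA (LPS minus medium, log2, horizontal axis) for 13368 genes above background on all 4 arrays, coloured by their call without LA. The cloud is wide along the horizontal axis and narrow along the vertical one, and Cxcl10 lies at 7.70 and 2.07.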

How the data were processed

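RNA of 4 bone marrow cultures was labelled with 1 colour and hybridised to Agilent mouse gene expression arrays, 1 array per group, all on 1 slide and in 1 scan. The deposited values used here are the processed signal intensity of each spot, written by Agilent Feature Extraction 12.0.3.1 per the file headers, and 11.5.1.1 is the version in the submitters' processing notes. The header statistics refer to background-subtracted and spatially detrended signals. The design of the array is on mm9. The authors' deposited value table proved to be the same intensity times 1 factor per array (linear, not centred, and with no direction to settle), with column medians of 1038 (medium), 873 (LPS), 1164 (LA) and 1189 (both).

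From these the log2 intensity minus the log2 of each array's 75th percentile over non-control spots was taken, spots of a probe were averaged, and each gene was read from its probe that was brightest over the 4 arrays. Probes were named through their accession in a RefSeq table of GRCm38.p6, in which 33767 of 56605 probes matched 1 symbol, 22838 none and 0 several. Levels were compared as differences, with no test, because there was 1 array per group. The steps were tested on simulated data.

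The comparison, the 76 lists and their members were chosen with earlier results of these data known. Of 1477 listed genes 1451 have a value. Named genes are those marked in a list, the 4 highest and 3 lowest measured of each list, the 25 largest differences each way among genes with an ordinary symbol whose probes point one way and that stay 2-fold apart under 3 alternatives, and the 10 largest bounds each way. Other genes named as examples, among them Casp1, Ccr1, Ccr6, Cd79b, Cgas, Col1a1, Flt3, H2-D1, Ifng, Iigp1, Il12rb1, Il1r1, Itga5, Lif, Ltb, Mavs, Pdcd1lg2, Plat, Ptgs2os2, Pvr, Pycard, Rnf31, Sharpin, Tnfsf4, Tnfsf8, Zbtb46, further markers and the genes of neighbouring runs, were chosen after their values were seen.

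Alternatives were scaling by the median or by bright probes, quantile normalization, normexp correction (offset 50, on median signals), the authors' values, the rule for several probes, the filter on dim probes and the fold threshold. Scripts ran in Python 3.11.15 (pandas 2.3.3, numpy 2.4.6, scipy 1.17.1, matplotlib 3.10.9) and in R 4.3.3 (limma 3.58.1).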

Additional observations from a re-analysis of the deposited data

Results flagged for a closer look

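In 5 named genes the difference with LPS had opposite signs without and with LA, at 2-fold or more on both sides, and the difference between the pairs was not tested, with 1 array per group. Dusp10, a phosphatase of p38 and JNK, differed by 1.92 between LPS and medium and by -1.66 between LPS with LA and LA. Hcar2, the receptor for hydroxybutyrate, gave 1.29 and -1.03, and Hspa1a, an inducible HSP70, 1.02 and -2.15. Kdr, a VEGF receptor, gave 2.39 and -1.08. The zinc importer gene Slc39a10 was the 1 case in the other order, with -1.57 and 1.43. These reversals depended on the processing. After normexp correction, 0 genes of any kind were 2-fold apart in opposite directions without and with LA. Hspa1a at 1.02 and Hcar2 at -1.03 also lay just past the 2-fold line.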

How the results depend on the processing

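The count of genes at least 2-fold higher was 550 after normexp correction, 2111 with no filter on dim probes, 2143 at a 1.5-fold and 314 at a 4-fold threshold, and between 740 and 1205 otherwise. The count of lower genes was 1544 with the 75th percentile over bright probes, 360 after normexp correction, 1714 in the authors' values, 2295 with no filter, 2464 at 1.5-fold and 76 at 4-fold. The share of higher genes among those past the threshold was 57.6% with median scaling, 35.7% with bright probes, 48.6% after quantile normalization, 60.4% after normexp correction, 30.2% in the authors' values, 47.9% with no filter, 46.5% at 1.5-fold and 80.5% at 4-fold. The genes higher both without and with LA numbered 1 after normexp correction, 170 with no filter, 118 at 1.5-fold and 2 at 4-fold. The kB and ISRE shares among higher genes were 14.1% and 18.1% at 4-fold. Filter and threshold act through how many genes are counted, and the cause of the other shifts was not tested. Of 365 named genes 2-fold apart, 365 kept their direction in each setting that measured them all (352 of 352 in the authors' values). Where a setting changed the values, 282 of 365 (normexp) to 364 of 365 (brightest probe over medium and LPS) stayed 2-fold apart. Dropping the filter leaves the values as they were, so its 365 of 365 was fixed in advance. Genes named for the largest differences had to stay 2-fold apart under 3 alternatives, so part of the counts in those settings was also built in. Among 15 lists with a median of at least 1, the median stayed above 0 in every setting run and at least 1 in 10 of them. The authors' values covered only the 13368 genes above background on all 4 arrays, so some list medians there rest on fewer members. No paired analysis was possible because there was 1 array per group, and no array could be left out. Signal limits dim genes most, where single spots differed with an SD of 0.54.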
